A study of Caenorhabditis elegans with 12 samples.

Results

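The lysozyme genes of the nematode Caenorhabditis elegans are described here in whole worms that spliced a fluorescent reporter in different ways. The 10 genes were taken by name (lys-1, lys-2, lys-3, lys-4, lys-5, lys-7, lys-8, lys-10, ilys-2 and ilys-3) from a table of 21982 genes, and all 10 were found. The 6 other lysozyme genes of the table (lys-6, lys-9, ilys-1, ilys-4, ilys-5 and ilys-6) served as a comparison. Every library came from strain KH2235, which carries a minigene splicing reporter derived from ret-1, and every library was taken on day 6. Fluorescence divided the worms into Green (GFP for the most part) and Red (mCherry for the most part), and each colour has 6 libraries. The labels give each of 6 batches 1 Green and 1 Red library, and each replicate number is its batch number. Neither the reporter's promoter and tissue nor the number of worms per library is stated in the labels. The question is which genes differ in level between worms of one strain and age when their reporter splicing differs.

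Lysozymes cut the peptidoglycan of bacterial cell walls. In C. elegans, which feeds on bacteria, they serve both digestion and defence in the gut. The lys genes encode lysozymes related to those of protists, and the ilys genes encode lysozymes of the invertebrate type. Several of them are induced by bacterial infection and are used as readouts of the p38 pathway, of the TGF-beta-like ligand DBL-1 and of insulin signalling to the transcription factor DAF-16.

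Values are normalized counts, in which each library's gene counts had been scaled by a single size factor. Recovered totals ran from 30185155 to 87141961 reads per library. Red replicate 6 stood apart. Its log2 values deviated from the Red mean with an SD of 0.697 across genes, against 0.312 to 0.4105 in the other 11 libraries. Summed markers of intestine, pharynx, coelomocytes, epidermis, neurons, body wall muscle and germline are given at the end, and none of the marker genes was at 0 in all libraries. In whole worms, fewer cells of a type and less RNA per cell cannot be told apart. The labels do not say that libraries are separate cultures, and the p-values reflect only how these libraries spread, which may be technical.

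Most lysozyme genes were higher in Green worms, and 1 was much lower. lys-1, lys-2, lys-4, lys-7, lys-8 and lys-10 passed as higher in Green, lys-3 passed as lower, and lys-5, ilys-2 and ilys-3 did not pass (limma on log2(normalized count + 1), Benjamini-Hochberg adjusted p under 0.05 over 14618 genes). The 7 of 10 genes called compare with 39.1% of all tested genes, the 6 that rose with 19% and the 1 that fell with 20.1%. Higher in Green in all 6 batches were 7 of the 10 genes (21.1% of all tested genes), and lower in all 6 was 1 (20.2%). Green and Red ranges were fully apart for 5 genes with Green above (7.06% of all tested genes) and for 0 with Green below (9.71%). With batch as a block, lys-5 also passed as higher and ilys-2 as lower. The block called 23.2% of all tested genes higher and 22.6% lower. Without Red replicate 6, and without the block, the calls were again 6 higher and 1 lower, while 29.3% and 25.5% of all tested genes were called. All 6 genes that rose differed by at least 2-fold, and 2.63% of all tested genes were both called higher and of that size. The median log2 difference, Green minus Red, was 1.36 over the 10 genes and 0.04 over all tested genes. When libraries were instead centred on their median gene, that median over all genes was 0.16, and the calls over all genes went from 2781 higher and 2938 lower to 4163 higher and 2337 lower. The 7 lysozyme calls were the same under that scaling. In each group the mean of all 10 genes was 10 or more, so none entered the test through 1 group alone.

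**Figure D1:**
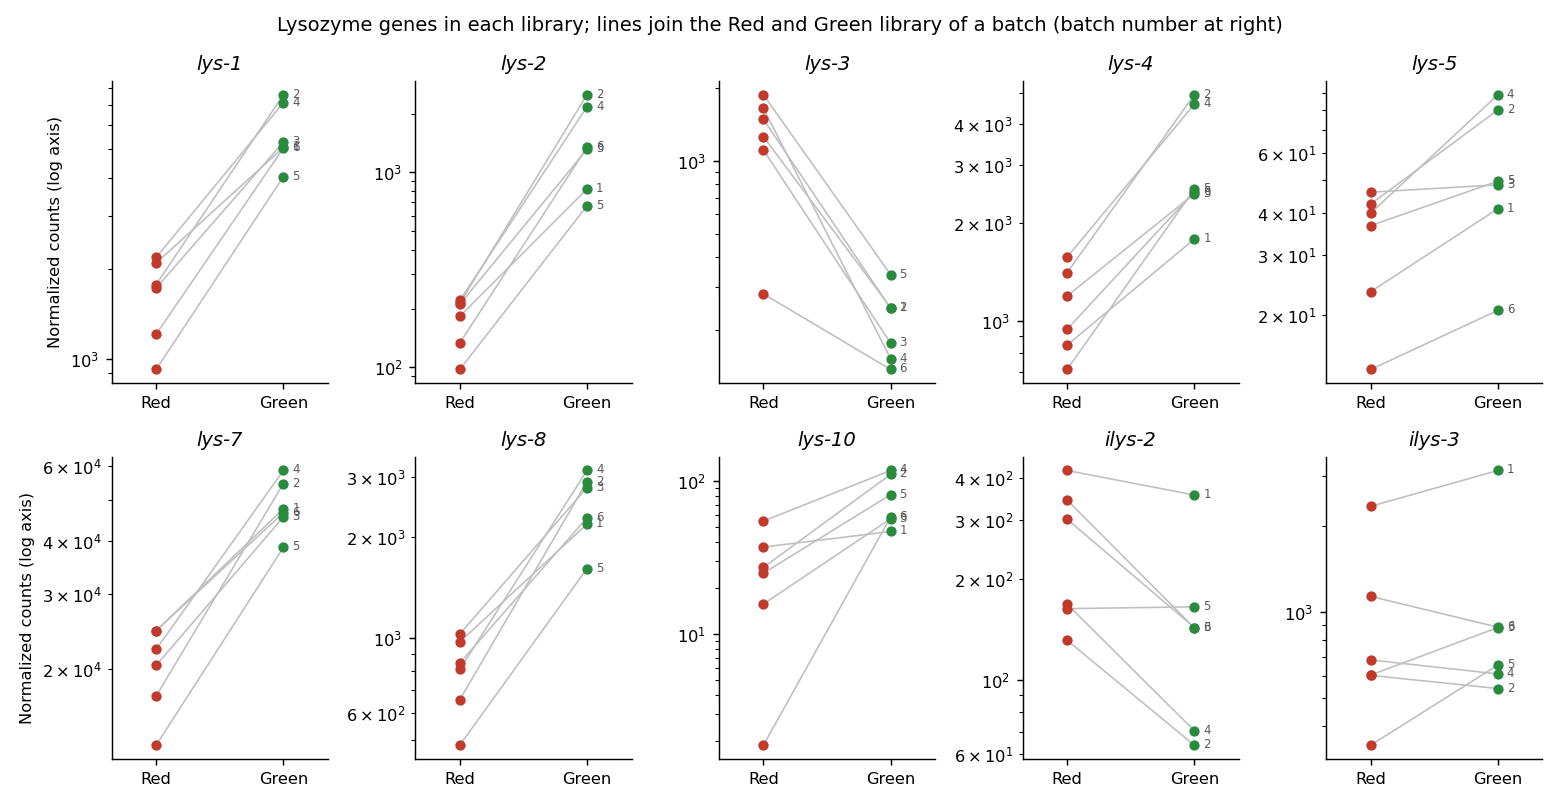
Normalized counts of the 10 lysozyme genes in each library, on log axes that differ between panels. Red points are Red libraries, green points are Green libraries, a line joins the libraries of a batch, and the number is the batch. All lines rise toward Green for lys-1, lys-2, lys-4, lys-5, lys-7, lys-8 and lys-10, all fall for lys-3, and those of ilys-2 and ilys-3 run in both directions.

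lys-7 (chromosome V, 3481432 to 3482600, build WBcel235), an antimicrobial effector gene and a described target of DAF-16, supplied most lysozyme reads. Its normalized counts were 38594, 47064 and 58479 (lowest, median and highest) in Green and 13283, 21354 and 24646 in Red. Every Green library lay above every Red library. Mean values of 48522 ± 7026 (Green) and 20432 ± 4464 (Red; SD, n = 6) gave a log2 difference of 1.27 (SE 0.15, limma adjusted p = 5.17e-05). Within batches the difference ran from 0.92 in batch 6 to 1.65 in batch 2. lys-7 held 74.2% to 79.2% of the reads of the 10 genes in Green and 73.2% to 83.4% in Red. The 10 genes together held 0.133% ± 0.0215 of all reads in Green, against 0.0633% ± 0.0120 of them in Red (SD, n = 6). The summed normalized count of the other 9 genes was also higher in each Green library, at 10143 to 18940 against 4650 to 8170 in Red.

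lys-1, lys-2 and lys-3 are neighbours on chromosome V, and lys-3 differed in the opposite direction from the others. lys-1 (10277904 to 10279056, plus strand) and lys-2 (10280307 to 10281474, minus strand) are 1250 base pairs apart. lys-3 (10282100 to 10283544, minus strand) begins 625 base pairs beyond lys-2, with no other coding gene between them.

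lys-1, a gut lysozyme gene known to be induced by the bacterium Serratia marcescens, had 4046, 5166 and 7572 normalized counts (lowest, median and highest) in Green and 925, 1749 and 2181 in Red. The groups did not overlap, and the log2 difference was 1.81 (SE 0.21, limma adjusted p = 4.88e-05). lys-2, described as a gene of the p38 immune response, had 673, 1327 and 2495 in Green and 97.5, 196 and 220.1 in Red. Its log2 difference of 2.96 (SE 0.31, limma adjusted p = 2.93e-05) was the largest of the 10 genes, a 7.76-fold difference. Again no Green library fell within the Red range.

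lys-3 had 137, 211 and 338 normalized counts (lowest, median and highest) in Green and 282, 1367 and 1867 in Red. The groups overlapped through 1 library, because Red replicate 6 at 282 lay below Green replicate 5 at 338. The other 5 Red libraries ran from 1105 to 1867. The log2 difference was -2.41 (SE 0.38), which puts lys-3 5.33-fold higher in Red (limma adjusted p = 0.000352). All 6 batches had less lys-3 in Green, with log2 differences from -3.42 in batch 4 to -1.03 in batch 6. Without Red replicate 6 the log2 difference was -2.81.

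Whether neighbours differed in their Green to Red difference was tested with ratios of normalized counts plus 1 within each library. Apart from the added 1, which weighs most on low genes, such ratios do not depend on how libraries are scaled. Such a ratio does not itself show opposite directions. For the pairs with lys-3 it restates differences already given above, from the same libraries. The log2 ratio of lys-2 to lys-3 ran from 0.99 to 3.82 in Green and from -4.25 to -1.07 in Red, a mean difference of 5.37. lys-2 therefore exceeded lys-3 in every Green library and lys-3 exceeded lys-2 in every Red library, in normalized counts that are not corrected for gene length. The log2 ratio of lys-1 to lys-3 was higher in Green by 4.22. lys-1 and lys-2 rose together but not equally: their log2 ratio was 2.07 ± 0.44 in Green against 3.22 ± 0.18 in Red (SD, n = 6), a difference of -1.14. For each of these 3 pairs the two-sided exact permutation p was 0.0022, the smallest that 924 assignments allow, and 0.0036 after Benjamini-Hochberg adjustment over 5 neighbour pairs. Exchanging Green and Red within batches, also an exact permutation test, gave p = 0.031, the smallest that 64 exchanges allow. The 3 genes are relatives, and whether the authors' counting shared reads among them was not tested.

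**Figure D2:**
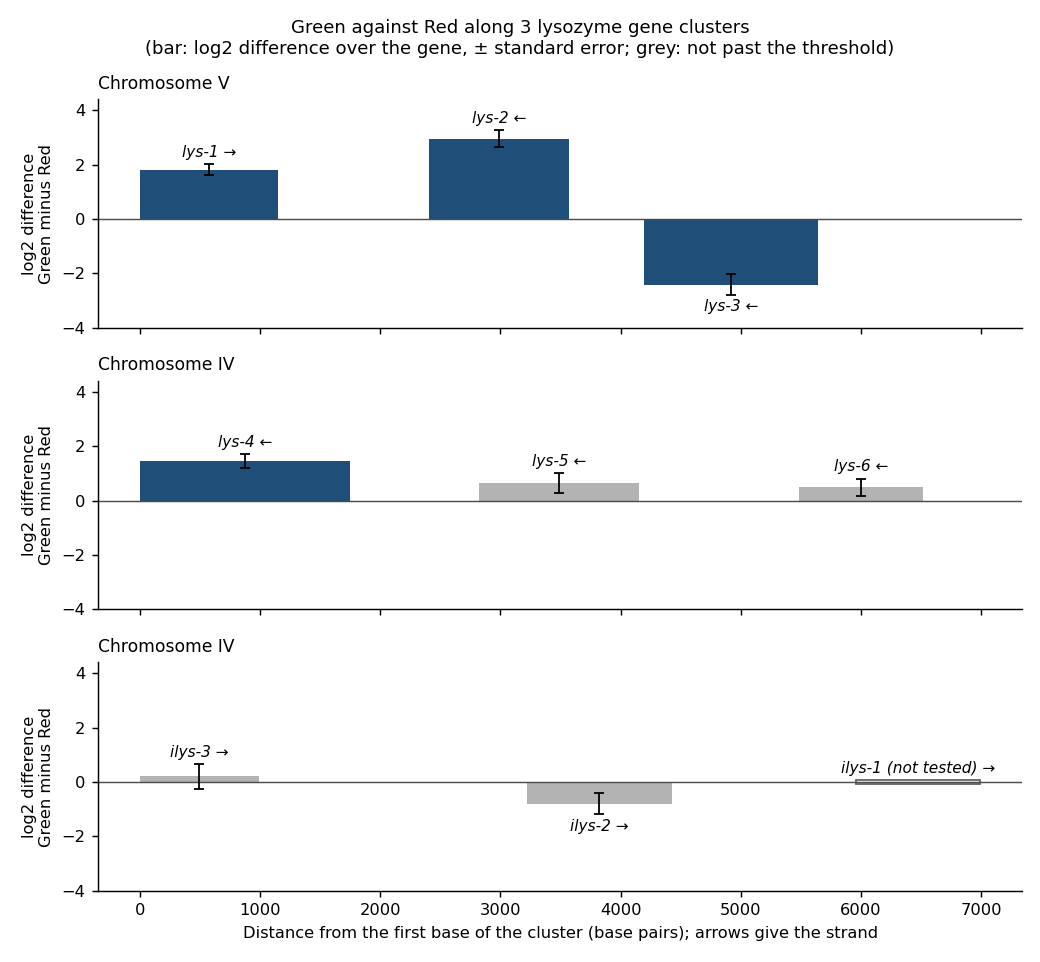
Log2 difference, Green minus Red, of each gene in 3 lysozyme clusters against its position in base pairs from the first base of the cluster. Bars span the gene, error bars are limma standard errors, blue bars passed the threshold and grey bars did not. lys-1 and lys-2 stand at 1.81 and 2.96 and their neighbour lys-3 at -2.41. ilys-1 was too low to be tested.

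A second group of neighbours lies on chromosome IV, where lys-4 passed and the low genes beside it did not. lys-4 (11621429 to 11623174), a protist-type lysozyme gene, had 1779.5, 2505 and 4921 normalized counts (lowest, median and highest) in Green and 710.2, 1067 and 1568 in Red. The groups did not overlap, and the log2 difference was 1.45 (SE 0.25, limma adjusted p = 0.000689). Within batches it ran from 1.04 in batch 3 to 1.83 in batch 5. lys-5 (11624252 to 11625582) was far lower, with 20.6, 48.9 and 88.8 in Green and 13.8, 38.2 and 45.9 in Red, and its groups overlapped.

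The lys-5 log2 difference of 0.64 had a 95% interval from -0.12 to 1.41 and missed the threshold (limma adjusted p = 0.163). It was higher in Green in 6 of 6 batches, though by 0.07 in batch 3, and it passed once batch was added as a block (limma adjusted p = 0.0213). The value moved with single libraries: it was 0.89 without Green replicate 6 (limma adjusted p = 0.0484), 0.48 without Green replicate 4 (limma adjusted p = 0.313) and 0.42 without Red replicate 6 (limma adjusted p = 0.279). The log2 ratio of lys-4 to lys-5 was higher in Green by 0.81 (two-sided exact permutation p = 0.026, the same after adjustment over the 5 pairs). Without Green replicate 6 this difference was 0.61 and the adjusted p from the exact permutation was 0.058. The neighbouring lys-6 averaged 60.2 ± 37.4 in Green against 38.4 ± 11.2 in Red (SD, n = 6), and its log2 difference was 0.48 (limma adjusted p = 0.247), or 0.24 without Green replicate 2.

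lys-8 and lys-10 have no lysozyme gene as a neighbour and were both higher in Green. lys-8 (chromosome II, 5586178 to 5587651), a lysozyme gene known as a target of DBL-1 signalling, had 1609, 2536 and 3142 normalized counts (lowest, median and highest) in Green and 482, 826 and 1029 in Red. No Green value fell within the Red range, and the log2 difference was 1.65 (SE 0.19, limma adjusted p = 5.19e-05). It overlaps C17G10.13 on the other strand by 38 base pairs. That gene was also higher in Green, by a log2 difference of 0.47, and whether counting used strand is not stated in the labels.

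lys-10 (chromosome IV, 8332826 to 8333518), a gene with a single exon in the annotation, was a low gene. It had 46.7, 69.7 and 117 normalized counts (lowest, median and highest) in Green and 1.89, 26.1 and 54.6 in Red. The lowest Red value rested on 3 reads in Red replicate 6, and Red replicate 4 at 54.6 lay above Green replicate 1. The log2 difference of 1.87 (SE 0.56, limma adjusted p = 0.0169) became 1.30 without Red replicate 6 and 1.49 in edgeR on the recovered reads. It was positive in 6 of 6 batches, from 0.33 in batch 1 to 4.36 in batch 6.

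The 2 invertebrate-type genes among the 10, ilys-2 and ilys-3, did not pass, and batch 1 was highest for both of them in each group. They lie 2234 base pairs apart on the plus strand of chromosome IV (ilys-3 at 2464456 to 2465443, ilys-2 at 2467678 to 2468879). ilys-3, whose product is known to digest bacterial cell walls in the pharynx and intestine, had 541, 769 and 3128 normalized counts (lowest, median and highest) in Green and 343, 642 and 2345 in Red. The groups overlapped over much of their range. The log2 difference of 0.20 (95% interval -0.76 to 1.17, limma adjusted p = 0.737) was positive in 3 batches and negative in 3. Its sign turned without Green replicate 1, to -0.16, and without Red replicate 5, to -0.03.

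ilys-2 had 63.9, 143 and 355 normalized counts (lowest, median and highest) in Green and 131, 234.6 and 420.3 in Red. These ranges overlapped as well. The log2 difference of -0.80 (95% interval -1.64 to 0.03) missed the threshold (limma adjusted p = 0.114). ilys-2 was lower in Green in 5 of 6 batches and passed when batch was a block (limma adjusted p = 0.0072). It also passed without Green replicate 1, at -1.09 (limma adjusted p = 0.026), while without Green replicate 2 it was -0.59 (limma adjusted p = 0.237). The block raised the lysozyme calls to 7 higher and 2 lower, while 23.2% and 22.6% of all tested genes were then called. The log2 ratio of ilys-2 to ilys-3 was lower in Green than in Red by -1.01 and lower in 6 of 6 batches (two-sided exact permutation p = 0.013, 0.016 adjusted over the 5 pairs). The neighbouring ilys-1 did not reach the minimum, averaging 0.911 in Green and 3.43 in Red.

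Of the 6 other lysozyme genes, ilys-5 (chromosome X, 6533490 to 6536840) was the most similar to lys-2. It had 4343, 6353 and 11974 normalized counts (lowest, median and highest) in Green and 649, 1074 and 1519.7 in Red, with no overlap, and a log2 difference of 2.68 (SE 0.24, limma adjusted p = 2.67e-05). ilys-4 (chromosome IV, 7895628 to 7897543) was lower in Green, at 188 ± 21.8 against 263 ± 41.1 in Red (SD, n = 6), with a log2 difference of -0.48 (limma adjusted p = 0.0108). That call was lost with quantile normalization, at -0.30 (limma adjusted p = 0.0593). ilys-4 lies wholly within atic-1 on the other strand, which was higher in Green by 0.79, and reads of the pair cannot be told apart unless the counting used strand. lys-9 and ilys-6 had means of 2.75 and 0.728 normalized counts over the 12 libraries and were not tested. The invertebrate-type genes thus differed in both directions: ilys-5 rose, ilys-4 fell, and ilys-2 and ilys-3 did not pass.

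**Figure D3:**
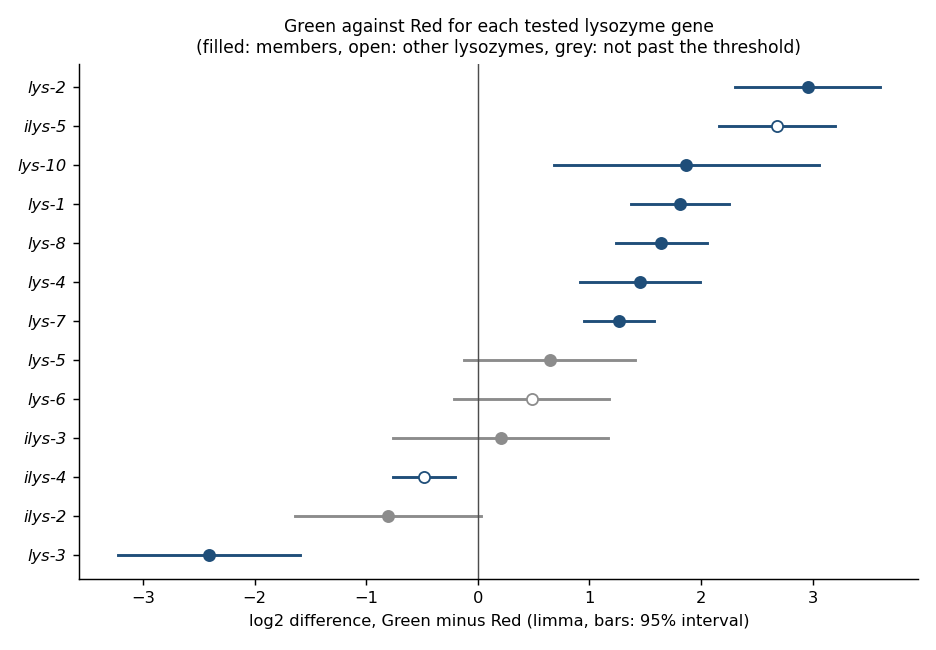
Log2 difference, Green minus Red, with its 95% interval for the 13 lysozyme genes that were tested (limma, 6 libraries per group). Filled points are the 10 genes described here, open points are other lysozymes, and grey marks genes that did not pass. The values run from -2.41 for lys-3 to 2.96 for lys-2.

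Levels were compared among the 10 genes as normalized counts per kilobase of coding length. The other lysozyme ilys-5, which is not in this order, averaged 17152 ± 7066 in Green and 2581 ± 688 in Red (SD, n = 6). lys-7 was highest in both groups, at 57151 ± 8276 in Green against 24066 ± 5258 in Red (SD, n = 6), and its range did not meet that of the next gene. In Green it was followed by lys-1 at 6359 ± 1527, lys-4 at 4870.05 ± 2024, lys-8 at 2897 ± 663, ilys-3 at 2679 ± 2388 and lys-2 at 1754 ± 867. Each of these overlapped the next in range, although lys-1 exceeded lys-4 and lys-4 exceeded lys-8 in 6 of 6 Green libraries. ilys-2, lys-3, lys-10 and lys-5 were lowest, at 376, 239, 113 and 84.9 on average. In Red, ilys-3 at 2282 ± 1750, lys-1 at 1847 ± 551, lys-4 at 1729 ± 522, lys-3 at 1408 ± 615 and lys-8 at 931 ± 237 each overlapped the next in range. The order of the first 3 by mean was not that of most libraries, since ilys-3 exceeded lys-1, and lys-1 exceeded lys-4, in 2 of 6 Red libraries each. The ilys-3 means rested on replicate 1: without it they were 1714 ± 385 in Green, below lys-2 at 1909, and 1614 ± 692 in Red, below lys-1 at 1749 and lys-4 at 1812 (SD, n = 5). lys-2, at 210.4 ± 59.8, lay below ilys-2 and above lys-5 in all 6 Red libraries, with no overlap in range. By mean level, lys-3 stood at rank 8 of the 10 genes in Green and rank 5 in Red.

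The genes also varied among libraries of a group. In Green, replicates 2 and 4 were the highest pair for 7 of the 10 genes (lys-1, lys-2, lys-4, lys-5, lys-7, lys-8 and lys-10) and for lys-6 and ilys-5. This was noticed in the values and was not tested. The same pair was highest for 8.99% of all tested genes. ilys-2 had its lowest Green values in these same libraries, at 63.9 and 70.6, and so did ilys-3, at 541 and 608. In Red, replicate 5 was the lowest library for 6 of the 10 genes. This too was noticed in the values, and the share over all tested genes was not computed. lys-3 was again different, since replicate 5 was its highest library in both Green and Red. The coefficient of variation was smallest for lys-7, at 14.5% in Green and 21.8% in Red, and largest for ilys-3 in Green at 89.1% and for ilys-3 in Red at 76.7%.

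**Figure D4:**
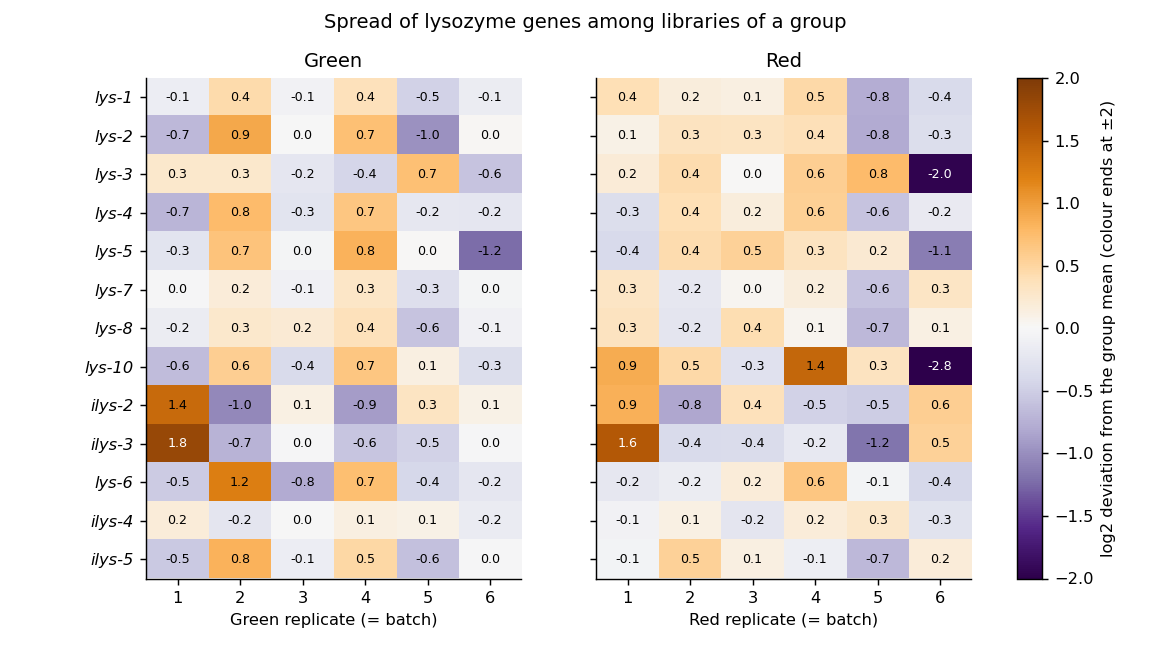
Log2 deviation of each library from its own group mean, for the 10 lysozyme genes and the 3 other lysozymes tested. Columns are replicates, which are also batches, and the number in each cell is the deviation. Most lys genes are above their mean in Green replicates 2 and 4, ilys-2 and ilys-3 are above it in replicate 1 of both groups, and lys-3 and lys-10 are lowest in Red replicate 6.

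Of the 10 genes, lys-2, lys-1 and lys-7 had the smallest p, and the genes most like each were sought by the root mean square difference of centred log2 values over the 12 libraries. For lys-2 they were ilys-5 at 0.30, the aspartyl protease gene asp-13 at 0.38 and T13F3.6 at 0.397. ilys-5 was thus the nearest of all other tested genes, while the adjacent lys-1 ranked 34th at 0.65. For lys-1 they were LLC1.2 at 0.157, Y34B4A.6 at 0.213 and the C-type lectin gene clec-41 at 0.223, and lys-8 ranked 15th at 0.272. For lys-7 they were ZK1320.3 at 0.135, Y45F10D.6 at 0.145 and the transthyretin-related gene ttr-46 at 0.158. These 9 genes had log2 differences, Green minus Red, of 1.01 to 2.68. The Green to Red difference is part of the measure of likeness, so their direction and size follow from how they were chosen. The ranks of ilys-5 and lys-1 for lys-2 also depend on the size of that difference.

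Genes of pathways known to control lysozymes passed in both directions, and their counts stand beside 19% of all tested genes called higher and 20.1% called lower. Of 10 genes of p38 immune signalling 6 fell and 1 rose, with a median log2 difference of -0.26. The adaptor gene tir-1, which acts at the top of the pathway, averaged 1299.9 ± 233.5 in Green against 4596 ± 1266 in Red (SD, n = 6), and its log2 difference was -1.79 (limma adjusted p = 2.67e-05). The kinase gene nsy-1 and the phosphatase gene vhp-1, a brake on p38, fell by 0.46 and 0.63 on the log2 scale. lys-2, described as a gene of this response, was higher in Green. These are RNA levels, and neither the activity of the pathway nor its link to lys-2 was tested.

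Of 9 genes of DBL-1 signalling 2 rose and 2 fell, close to those shares of all genes. The ligand gene dbl-1 averaged 157 ± 26.5 in Green against 222 ± 27.9 in Red (SD, n = 6, limma adjusted p = 0.0095), and the cofactor gene sma-9 had a log2 difference of -0.39. The dbl-1 call was lost with quantile normalization. The receptor gene daf-4 passed at 0.35, a call lost with quantile normalization and without any 1 of 8 libraries (Green replicates 3 to 6 and Red replicates 1, 2, 4 and 5). Of 8 genes of insulin signalling to DAF-16 3 rose and 0 fell, with a median log2 difference of 0.25. Without Red replicate 6, 5 of the 8 rose, while 29.3% of all tested genes were then called higher. Of 6 transcription factor genes that act in the gut, pqm-1 and hlh-30 fell by 0.68 and 0.38 on the log2 scale and 0 rose.

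Markers of tissues were followed beside the lysozymes. Of 12 intestine markers 1 rose and 3 fell, with a median log2 difference of -0.13 and summed normalized counts of 28798 to 53123 in Green and 24165 to 42001 in Red. The esterase gene ges-1 rose by 1.295, while the gut actin gene act-5 and eps-8 fell by 0.60 and 0.34, the eps-8 call being lost after median centring and without any 1 of 4 libraries (Green replicates 1 to 3 and Red replicate 4). With the batch as a block 4 intestine markers rose and 4 fell, while 23.2% and 22.6% of all tested genes were then called. Of 10 tested pharynx markers 5 fell and 0 rose, pha-4 by 0.85, phat-3 by 0.75 and tnc-2 by 0.41. Sums over all 12 listed pharynx markers, with the untested phat-1 and phat-4, were 5446 to 6666 in Green and 6458 to 8867 in Red. The phat-3 and tnc-2 calls were lost with quantile normalization, and that of tnc-2 also after median centring. Of 3 coelomocyte markers unc-122 rose by 0.56, with sums of 354 to 406 in Green and 230.1 to 376 in Red.

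All 9 germline and oocyte markers rose, him-3 and glp-1 by 0.46 each and rme-2 by 0.64, with a median log2 difference of 0.46 and sums of 252398 to 311549 in Green and 148124 to 235242 in Red. Of 7 body wall muscle markers 6 rose, unc-27 and tnt-2 by 1.59 each and unc-15 by 0.95, with sums of 31262 to 53413 and 20076 to 35975. Of 9 neuron markers 5 fell and 0 rose, egl-3 and sbt-1 by 0.43 each and unc-119 by 0.39 (a call lost after median centring), with sums of 15463 to 17293 and 16644 to 21021. Of 7 epidermis markers 2 rose and 2 fell, the adult collagen gene col-19 at 2.88, nhr-23 at 0.49 and che-14 at -1.21, with sums of 4482 to 5294 and 3013 to 3962. These counts are to be read against the 19% of all tested genes called higher and the 20.1% called lower. The part of tissue composition in the lysozyme differences was not tested.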

How the data were processed

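Whole-worm RNA was purified with Qiagen miRNeasy and made into libraries with Roche Kapa stranded mRNA HyperPrep, per the labels' protocols. The submitters' processing notes name FastQC 0.11.8, MultiQC, STAR, Salmon 0.14.2, DESeq2 and build WBcel235. The signal deposited by the authors holds each gene's counts scaled by a size factor of the library. Reads were recovered from the steps between these values, and 100% of values in each library came out whole within 0.001. For Red replicate 2 that check is weak, since its factor is near 1. Positions and coding lengths are from Ensembl annotation release 115 (WBcel235). No sequences were used here.

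Differences were fitted with limma 3.58.1 (R 4.3.3, trended eBayes) on log2(normalized count + 1) for 14618 genes whose mean reached 10, and p-values were adjusted by Benjamini-Hochberg over all of them. Adding 1 draws differences of low genes toward 0. The alternatives were batch as a block, pseudocounts of 0.5 and 5, no minimum, a minimum of 50, quantile normalization, median centring, edgeR 4.0.16 with TMM, DESeq2 1.42.0 (both on recovered reads) and the omission of each library. Omitting batch 6, and omitting replicate 1 for the level order, were added after seeing the data. Ratios of neighbouring genes were tested by exact permutation in Python 3.11.15. The limma fit was also run on simulated counts with few changed genes, no batch differences and no library like Red replicate 6. That run does not cover these features of the data.

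Replicate numbers are batch labels and therefore pair the libraries. Across genes, deviations from group means correlated by 0.11 to 0.37 (mean 0.24) between the Green and the Red library of a batch. Between Green and Red libraries of different batches the correlations ran from -0.36 to 0.20 (mean -0.05), so the ranges overlapped. No pair of libraries within a group looked like 1 library deposited again, and pairs of a Green and a Red library were not checked. The genes, lists and tests were chosen with earlier results of these data known. Named are the 10 genes, the 6 other lysozymes, up to 3 called genes with the smallest p in each list and the 3 most similar genes of each of the 3 among the 10 with the smallest p. The genes that this rule names in the insulin list are not reported here. C17G10.13 and atic-1 were named after their values were seen, because they overlap named genes.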

Additional observations from a re-analysis of the deposited data

Results flagged for a closer look

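ilys-3 in Green replicate 1, at 3128 normalized counts, lay far above the other Green libraries, whose highest was 887. The gap to the next library was 0.866 of the group's whole range, above Dixon's 95% critical value for 6 samples. ilys-2 in the same library, at 355, lay above the next Green library, at 165, by 0.653 of the range. Of 26 groups of 6 examined, 2 were singled out, both through Green replicate 1. Chance alone does so in about 5% of groups if values are normally distributed. The check used normalized counts and was not run on the log2 values of the tests, where other libraries stand out. For lys-3, Red replicate 6 lay at -1.96 from the Red log2 mean, with the other Red libraries at 0.01 to 0.76. For ilys-2, Green replicate 1 at 1.41 stood less apart from the next Green library, at 0.31, with the lowest at -1.04. Red replicate 1, of the same batch as Green replicate 1, was also the highest Red library for ilys-3 and ilys-2, at 2345 and 420.3.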

How the results depend on the processing

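The 7 lysozyme calls kept their direction and stayed past the threshold under each of 22 alternatives. Their log2 differences ranged from 2.77 to 3.15 for lys-2, 1.66 to 1.94 for lys-1, 1.10 to 1.39 for lys-7, 1.51 to 1.77 for lys-8, 1.30 to 1.59 for lys-4, 1.30 to 2.15 for lys-10 and -2.81 to -2.26 for lys-3. The number called lower was 2 with the batch as a block and 1 to 2 when single libraries were left out, the second gene being ilys-2. The ilys-3 difference ran from -0.16 to 0.52 when single libraries were left out. Over its alternatives lys-5 ran from 0.42 without Red replicate 6 to 0.97 with quantile normalization, passing in the latter, with the block, without Green replicate 6 and without batch 6 (0.66). lys-6 ran from 0.24 without Green replicate 2 to 0.83 with quantile normalization, where it passed. The lys-4 to lys-5 ratio difference ran from 0.61 to 0.99 when single libraries were left out. The ratio tests gave the same calls with the batch pairing (replicate block), at differences of -1.14, 4.22, 5.37, 0.81 and -1.01. The block raised the number called higher to 7 by adding lys-5, and changed no lysozyme call other than those of lys-5 and ilys-2. The cause of these changes was not tested. Reads per library were few for lys-5, at 19 to 73, and lys-10, at 3 to 107, and the part of counting error in their spread was not tested.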
